A study of Homo sapiens with 4 samples.

Results

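MicroRNAs recovered from RD cells with the EVEN set of probes against circHIPK3 were compared with those recovered by LacZ control probes. RD cells are an established human embryonal rhabdomyosarcoma line, from a tumour type that shows muscle-like features, and they received no treatment. Cells were lysed under native conditions, biotinylated antisense probes to HIPK3 exon 2 (EVEN and ODD sets) or to LacZ were added and captured on streptavidin beads, and the RNA that came down was made into small RNA libraries with a QIAseq miRNA kit and sequenced single-end. The groups were RD input (lysate without pull-down), RD pull-down with circHIPK3 EVEN probes, RD pull-down with circHIPK3 ODD probes and RD pull-down with LacZ probes, each with 1 library and 1 biological replicate. The miRNAs described are the 289 of 2656 listed mature miRNAs that had 20 or more reads in the EVEN or the LacZ library. Of these, 138 reached the minimum in both libraries, 146 in LacZ only and 5 in EVEN only. The LacZ library was 4.30 times as deep as the EVEN library, so a miRNA that passed through EVEN alone had to be at least 4.53-fold higher there.

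A miRNA is a short RNA that Argonaute proteins load and that pairs with target RNAs mainly through its seed, bases 2 to 8 from the 5′ end. Each hairpin precursor can give a 5p and a 3p arm, and many miRNAs share a seed or are cut from 1 clustered transcript. CircHIPK3 is a circular RNA formed by back-splicing of exon 2 of HIPK3, a gene for a nuclear kinase, and has been described as a binding partner of several miRNAs. A probe pull-down recovers the probed RNA with what is bound to it, together with whatever the probes and beads retain by themselves, and the LacZ probes, directed at a bacterial transcript, measure the latter. How much circHIPK3 came down was not analysed here. Linear HIPK3 RNA holds exon 2 too, so these libraries cannot tell circular from linear RNA.

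The sequences of the 15 members with the highest EVEN to LacZ ratios are shown because the comparison turns on them. They are RefSeq mature sequences (GRCh38.p14), with the seed in capitals.
miR-365b-5p: aGGGACUUucaggggcagcugu
miR-1914-5p: cCCUGUGCccggcccacuucug
miR-18a-5p: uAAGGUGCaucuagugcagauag
let-7e-3p: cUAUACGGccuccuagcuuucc
miR-489-3p: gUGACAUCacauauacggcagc
miR-21-5p: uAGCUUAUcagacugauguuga
miR-92b-5p: aGGGACGGgacgcggugcagug
miR-193b-5p: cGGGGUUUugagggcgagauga
miR-188-3p: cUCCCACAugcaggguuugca
miR-432-5p: uCUUGGAGuaggucauugggugg
miR-134-5p: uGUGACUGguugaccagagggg
let-7g-5p: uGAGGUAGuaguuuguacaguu
miR-3184-3p: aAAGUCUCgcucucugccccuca
miR-877-5p: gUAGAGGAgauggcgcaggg
miR-3187-3p: uUGGCCAUggggcugcgcgg
No seed was shared among these 15. Their G and C content ran from 36.4% in miR-21-5p and let-7g-5p to 75% in miR-3187-3p.

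Of the 15 members with the lowest ratios, 7 are shown for contrast, again with the seed in capitals.
let-7i-3p: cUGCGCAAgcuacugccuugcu
miR-449a: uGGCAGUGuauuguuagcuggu
miR-33a-5p: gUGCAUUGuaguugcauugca
miR-29c-3p: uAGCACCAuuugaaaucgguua
miR-1301-3p: uUGCAGCUgccugggagugacuuc
miR-133a-5p: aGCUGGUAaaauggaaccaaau
miR-378a-5p: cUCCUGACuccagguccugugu
Of the 289 members, 267 had a RefSeq sequence and 22 did not, miR-483-5p and miR-374a-5p among the latter.

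Depth was 98950 miRNA reads for EVEN and 425395 for LacZ, beside 426450 for ODD and 2987858 for the input. The members took 99.5% of EVEN reads and 99.6% of LacZ reads. One read is worth 10.1 CPM (reads per 1000000 miRNA reads) in EVEN and 2.35 CPM in LacZ, and a count of 0 allows up to 30.3 CPM in EVEN and 7.05 CPM in LacZ. The labelled cell type was checked against 10 skeletal muscle miRNAs, all of which had input reads and which summed to 6.39% of the input. The 4 neuronal markers summed to 3.12% of the input, the 2 endothelial markers to 1.43%, the 7 epithelial markers to 0.0195% and the 5 blood cell markers to 0.00385%, with miR-451a at 0. The liver marker miR-122-5p had 11 input reads. With 1 library a side no difference below has a replicate check, no test was possible, and all intervals are 95% counting intervals that cover counting error only.

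A few miRNAs took more of the EVEN library than of the LacZ library, and most other members took less: the 10 most abundant held 63.9% of EVEN reads and 52.1% of LacZ reads. Members were called at least 2-fold higher or lower by the log2 ratio of (reads + 0.5)/(library total), EVEN over LacZ. On this scale 28 of 289 members (9.69%) were called higher in the EVEN library and 148 (51.2%) lower, and the median ratio of all members was -1.06. Medians of ratios below are on this log2 scale. Of the 148, 99 passed the read minimum through LacZ alone, against 146 of all 289 members, and this route favours low ratios. Among the 148, 24 had 0 EVEN reads, and for 7 of these the bound at 3 counts is under 2-fold, so their call rests on the added 0.5. The 28 higher members together took 40.5% of EVEN reads, 11.2% of LacZ reads, 25.3% of ODD reads and 6.46% of input reads. The 148 lower members took 9.83% of EVEN reads against 33.7% of LacZ reads, 10.4% of ODD reads and 46.8% of input reads. Shares sum to a fixed whole, so a larger share for some members leaves less for the rest. How far this bears on the 148 lower calls was not tested.

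The balance of the calls depended on the scaling, although a scaling factor leaves the order of the members as it is. Of all calls 15.9% were higher ones by library totals. With median-of-ratios size factors 43 members were higher and 107 lower (28.7% of calls higher), and with totals that left out the 10 most abundant miRNAs of each library 48 and 105 (31.4%). Centred on the median of the members, 76 were higher and 73 lower (51.0%), and with 5 reads added in place of 0.5 the counts were 32 and 87 (26.9%). The median of all members was -1.06 by totals, -0.80 with TMM factors, -0.65 with median-of-ratios factors and -0.57 with the reduced totals, so list medians are given beside it.

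**Figure D1:**
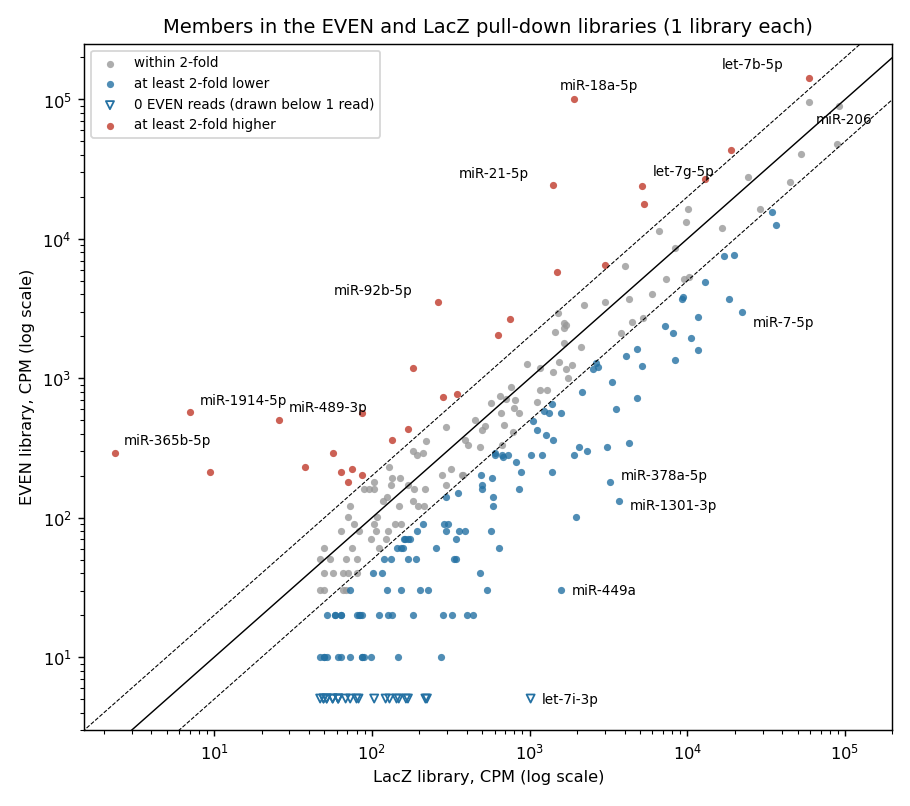
Share of reads of the 289 members in the LacZ library (x axis, CPM, log scale) and the EVEN library (y axis, CPM, log scale), 1 library each; the solid line marks equal shares, the dashed lines 2-fold, and open triangles the members with 0 EVEN reads. The 28 higher members (red) lie above the upper dashed line from 2.35 CPM to 58926 CPM in LacZ, and the 148 lower ones (blue) from 47.0 CPM (miR-625-5p) to 36749 CPM (miR-125b-5p).

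Calls occurred at every abundance. Among the 74 members with 20 to fewer than 50 LacZ reads, 6 were higher and 39 lower. Among the 40 members with 2000 or more LacZ reads, 5 were higher and 18 lower, and the median ratios of these classes were -1.12 and -0.92. The counting interval lay beyond 2-fold for 18 of the higher members (6.23% of 289) and 72 of the lower ones (24.9%). The other 10 higher members had intervals wholly above 1. Of the other 76 lower members, 63 had intervals wholly on the lower side and 13 had intervals that held 1. Among the 284 members with 20 or more LacZ reads, 23 (8.1%) were higher, and among the 138 with 20 or more reads in both libraries 22 (15.9%) were higher and 49 (35.5%) lower.

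miR-18a-5p had the highest ratio of the members with 100 or more LacZ reads. It is the product of the second hairpin of the growth-promoting miR-17-92 cluster and regulates, among other targets, signalling and cell cycle genes. It had 10907 input, 9897 EVEN, 329 ODD and 819 LacZ reads, which is 3650, 100020, 771 and 1925 CPM. EVEN alone was high, and ODD and LacZ were both below the input. Its fold over LacZ was 52.0 (48.4 to 55.9), and its share of EVEN reads was 10.0%. The hairpin MIR18A lies on chromosome 13 at 91350751 to 91350821 of GRCh38, plus strand, in an exon of MIR17HG. miR-18b-5p, from a paralogous cluster, shares its seed and differs from it by A20U, counted from the 5′ end. That near-copy had 0, 10, 0 and 1 reads in the same order and was too rare to be a member. The assignment of reads that fit both was not stated.

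The rest of the miR-17-92 cluster did not share this ratio. Of its 10 members miR-18a-5p was the only one at least 2-fold higher by totals, 6 were lower, and the median ratio was -1.48 (-1.19 with the member at 0 EVEN reads at its bound) against -1.06 for all members; centred on the members' median, 3 were higher and 4 lower. miR-92a-3p, the last hairpin of the cluster, had 29471, 2742, 5237 and 10393 reads in input, EVEN, ODD and LacZ, a fold of 1.13 (1.09 to 1.18). miR-18a-3p, the opposite arm of miR-18a-5p, had 247, 19, 29 and 64 reads and a fold of 1.28 (0.722 to 2.16). miR-17-5p stood 1.56-fold below LacZ (1.23 to 1.99) and miR-20a-5p 2.58-fold (2.40 to 2.79). miR-19a-3p and miR-19b-3p, which share the seed GUGCAAA, were 5.84-fold (4.51 to 7.69) and 6.73-fold (5.31 to 8.65) lower. Both were already below the input in LacZ, with log2 ratios of -2.72 and -3.05. miR-17-3p had 2794, 16, 4984 and 213 reads and was 3.10-fold lower (1.86 to 5.52), with its high value in the ODD library only.

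miR-21-5p, one of the miRNAs most often raised in tumours, had 6525, 2410, 4602 and 599 reads in input, EVEN, ODD and LacZ. In CPM these are 2184, 24356, 10791 and 1408, so both circHIPK3 libraries were above the input and LacZ was below it. Its fold over LacZ was 17.3 (15.8 to 18.9). Its hairpin MIR21, in an exon of VMP1, spans 59841266 to 59841337 of chromosome 17. miR-590-5p carries the same seed, AGCUUAU, and had 2867, 6, 13 and 67 reads, 2.60-fold below LacZ (1.13 to 7.33).

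miR-92b-5p comes from a hairpin related to miR-92a and was the less abundant arm in the input only. It had 63, 350, 272 and 112 reads, or 21.1, 3537, 638 and 263 CPM. All pull-downs were above the input and EVEN was highest, with a fold over LacZ of 13.4 (10.8 to 16.8). The other arm, miR-92b-3p, had 407, 28, 71 and 82 reads and a fold of 1.47 (0.92 to 2.28).

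Members with few reads headed the ranking. miR-365b-5p had 1, 29, 7 and 1 reads in input, EVEN, ODD and LacZ, a ratio of 124.7 (20.7 to 5092) that rests on a single LacZ read. miR-365a-5p, from the paralogous hairpin with the same seed and 3 substitutions (C10U, A11G and C19A), had 34, 12, 91 and 17 reads and missed the minimum. miR-1914-5p, from an exon of UCKL1 on chromosome 20, had 2, 57, 1 and 3 reads, a ratio of 81.7 (26.6 to 408). let-7e-3p had 91, 21, 4 and 4 reads, a ratio of 22.6 (7.62 to 90.4). miR-489-3p, which is known to keep muscle stem cells quiescent, had 254, 50, 3 and 11 reads, a ratio of 19.5 (10.0 to 41.6). With miR-432-5p, these are the 5 members that passed through EVEN alone, and their ratios had to be high. The neighbour of miR-489-3p in an intron of CALCR, miR-653-3p, had 343, 2, 2 and 186 reads and was 21.6-fold lower (5.90 to 180).

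miR-193b-5p had 147, 117, 100 and 77 reads and was 6.53-fold higher (4.86 to 8.83), while its opposite arm miR-193b-3p had 282, 6, 13 and 47 reads, with a ratio of -0.77. Together with miR-365b-5p these form the list of the miR-193 and miR-365 clusters, with 2 of 3 members higher, beside 9.69% of all members, and none lower. One of the 2, miR-365b-5p, passed through EVEN alone and had to be higher. miR-188-3p had 1010, 56, 6 and 37 reads, a fold of 6.51 (4.22 to 10.1). Its CPM in EVEN was 566 against 338 in the input, while LacZ and ODD were at 87.0 and 14.1.

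**Figure D2:**
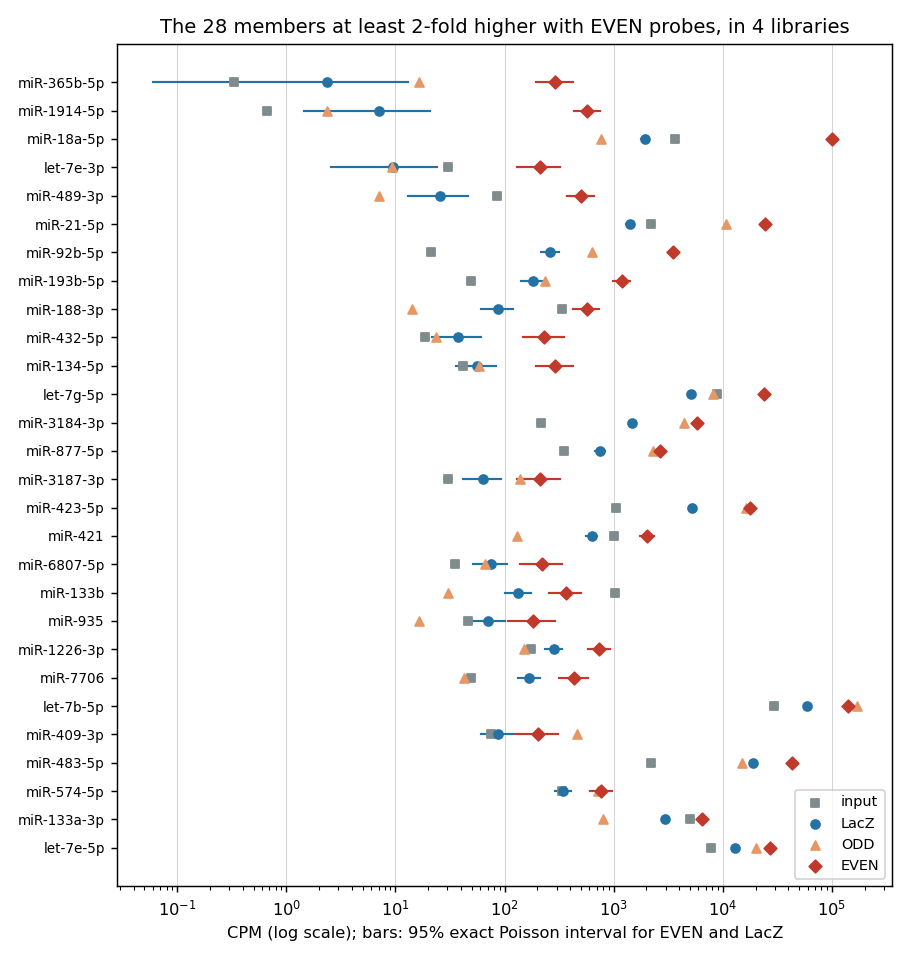
CPM (log scale) of the 28 members at least 2-fold higher with EVEN probes in the input, LacZ, ODD and EVEN libraries, 1 point per library, with exact Poisson counting intervals for EVEN and LacZ. EVEN is the highest of the 4 libraries for 25 of them, with miR-133b, let-7b-5p and miR-409-3p as the exceptions, and miR-18a-5p stands farthest from its other values among the abundant ones.

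The input puts the higher members on another scale, since a high ratio can come from a high EVEN or a low LacZ value. Of the 28, 25 were at least 2-fold above the input in EVEN, against 77 of all 289 members (26.6%). Choosing members by a high EVEN value raises this count, so it is a description. LacZ was at least 2-fold above the input for 12 of the 28, within 2-fold for 12 and at least 2-fold below for 4. The 12 with high LacZ values had a median log2 EVEN to input ratio of 4.19 and a median log2 LacZ to input ratio of 2.11, miR-423-5p and miR-483-5p among them. miR-133b was the 1 member of the 28 that was at least 2-fold below the input in EVEN, at a log2 ratio of -1.47, with LacZ lower still at -2.92. Against the ODD library, 130 of all 289 members (45%) were at least 2-fold higher in EVEN and 36 (12.5%) lower. Against LacZ, 24 (8.3%) were at least 2-fold higher in ODD and 213 (73.7%) lower. Members were chosen by EVEN or LacZ reads and not by ODD reads, which favours low ODD values in both comparisons. miR-10a-5p, with 1 EVEN, 166 ODD and 1 LacZ reads, was left out in this way. The EVEN and ODD ratios share the LacZ library, so ODD reads are only set beside the EVEN values.

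The let-7 guide strands, which repress growth genes such as RAS and MYC, divided although they share the seed GAGGUAG. By totals 3 of the 9 were at least 2-fold higher, 1 was lower, and the median ratio was 0.05 against -1.06 for all members; with TMM, median-of-ratios or reduced totals 4 were higher and none lower, and centred on the members' median 6 were higher (median 1.11). let-7g-5p had 26730, 2351, 3443 and 2188 reads in input, EVEN, ODD and LacZ, 4.62-fold above LacZ (4.36 to 4.90). let-7b-5p, the most abundant member in EVEN at 14.2% of reads, had 89185, 14024, 72979 and 25067 reads, a fold of 2.41 (2.36 to 2.46). let-7e-5p had 23332, 2665, 8667 and 5522 reads, a fold of 2.08 (1.98 to 2.17).

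let-7c-5p, which differs from let-7b-5p by G17A, was 1.73-fold above LacZ (1.61 to 1.85). let-7d-5p and let-7a-5p were level with LacZ, at 1.04 (0.961 to 1.12) and 0.989 (0.966 to 1.01). let-7i-5p and let-7f-5p stood 1.77-fold (1.69 to 1.84) and 1.87-fold (1.81 to 1.93) below it, and miR-98-5p 2.25-fold (1.87 to 2.74). The full sequences show how little separates members with different ratios, again with the seed in capitals.
let-7b-5p: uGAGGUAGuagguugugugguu
let-7c-5p: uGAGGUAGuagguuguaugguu
let-7a-5p: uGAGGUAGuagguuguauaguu
let-7e-5p: uGAGGUAGgagguuguauaguu
let-7f-5p: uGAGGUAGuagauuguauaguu
let-7i-5p: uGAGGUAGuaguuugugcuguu
miR-98-5p: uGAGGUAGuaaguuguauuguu
let-7a-5p and let-7e-5p differ by U9G and had log2 ratios of -0.02 and 1.05. let-7a-5p and let-7f-5p differ by G12A and had -0.02 and -0.90. let-7g-5p and let-7i-5p differ by A17G and A19U and had 2.21 and -0.82. Ratios of members that differ by 1 base also depend on how reads were assigned between them, which was not stated.

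Of the 11 listed passenger strands of let-7, 4 were members, and their ratios spread still wider. The ends of this spread are weak. let-7e-3p, the highest at a log2 ratio of 4.36, was included only through EVEN, and let-7i-3p, the lowest, had 0 EVEN reads. let-7i-3p had 1286, 0, 6 and 432 reads and was at least 33.5-fold lower in EVEN than in LacZ, the strongest bound among the 24 members with 0 EVEN reads. let-7d-3p had 2426, 211, 230 and 621 reads, a fold of 1.46 (1.24 to 1.71), and let-7a-3p was level at 1.02 (0.561 to 1.74).

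Of the skeletal muscle miRNAs, 5 members lay above the median of all members and 2 below it. They promote or mark muscle differentiation, and 7 of the 10 listed were members. By totals 2 were higher, 2 lower and 3 within 2-fold, beside 9.69% higher and 51.2% lower among all members, with a median ratio of 0.69; with median-of-ratios factors 5 were higher and 2 lower. The list took 11.3% of EVEN reads, 7.27% of LacZ reads, 3.80% of ODD reads and 6.39% of input reads. miR-133a-3p had 14975, 641, 338 and 1272 reads, a fold of 2.17 (1.97 to 2.38). miR-133b, which differs from it by G22A, had 3052, 36, 13 and 57 reads, a fold of 2.72 (1.74 to 4.19).

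miR-206, the muscle miRNA with the most reads in every library here, had 125781, 9431, 13964 and 25102 reads, a fold of 1.62 (1.58 to 1.65). miR-1-3p shares its seed GGAAUGU and lay on the other side of LacZ, with 41814, 161, 598 and 2050 reads, 2.96-fold below LacZ (2.52 to 3.50). miR-486-5p and miR-486-3p, which are also abundant in red blood cells, were 1.58-fold (1.44 to 1.73) and 1.93-fold (1.68 to 2.22) above LacZ. miR-133a-5p, the opposite arm of miR-133a-3p, had 786, 0, 6 and 55 reads and was at least 4.26-fold lower.

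**Figure D3:**
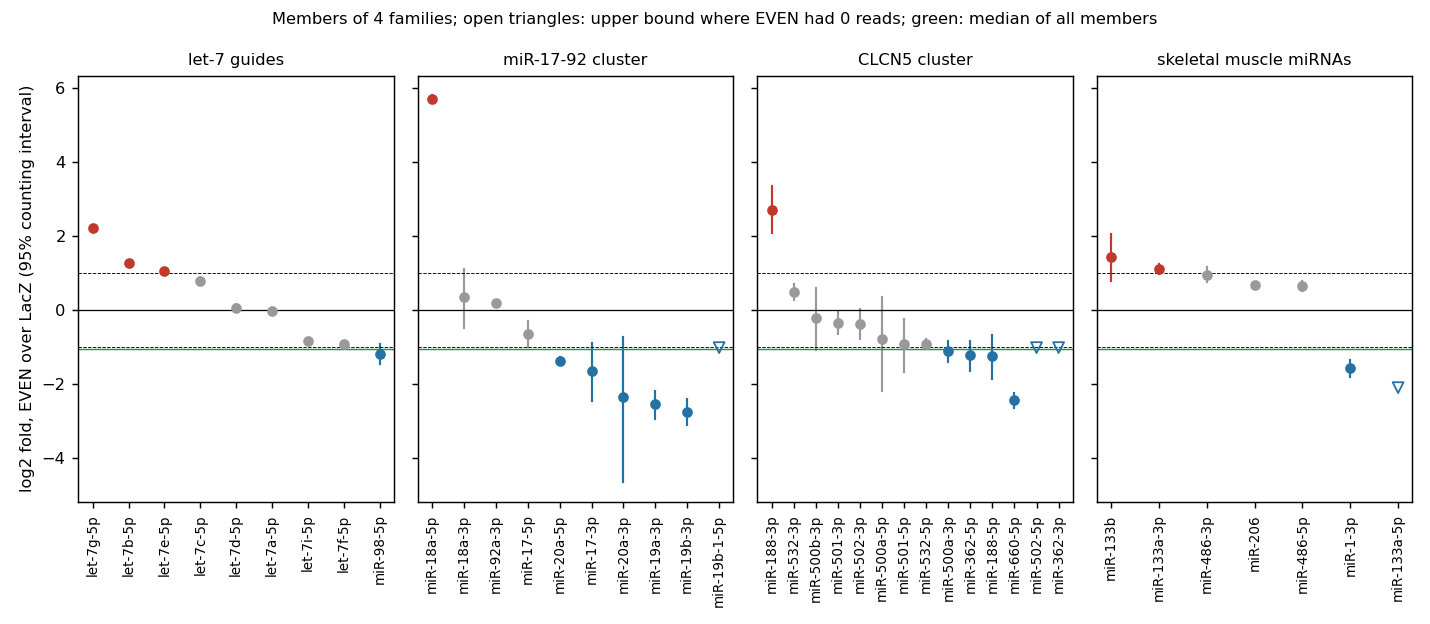
Log2 fold of EVEN over LacZ (y axis) with the 95% counting interval for the members of the let-7 guides, the miR-17-92 cluster, the CLCN5 cluster and the skeletal muscle list, ordered by value; red and blue mark calls at 2-fold (dashed lines), open triangles upper bounds at 0 EVEN reads, and the green line the median of all members. Members with the same seed or the same cluster fall on both sides of 0, from 5.70 for miR-18a-5p to -2.74 for miR-19b-3p in the miR-17-92 cluster.

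Shared seeds gave a wider view of the same spread. In all, 27 seeds were shared by 71 members, and the median distance between the highest and lowest log2 ratio within a seed was 1.29. A higher and a lower member occurred together in 3 seeds, those of let-7, of miR-21-5p and miR-590-5p, and of miR-423-5p and miR-3184-5p. For the last pair, whether reads were counted by strand was not stated. Of all 289 members 9.69% were higher and 51.2% lower. Whether members of 1 seed differ more or less than unrelated members was not tested. The pair miR-501-3p and miR-502-3p was closest, at -0.34 and -0.36, and the 2 members of the miR-133 seed were 0.33 apart.

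The 2 arms of a hairpin often differed. In 60 pairs of arms both were members, and their log2 ratios differed by a median of 1.40. Among all members 9.69% were higher and 51.2% lower, and whether arms differ more than unrelated members was not tested. Both arms were higher in 1 pair, let-7e, both were lower in 16, and 6 pairs had 1 arm higher and the other lower. let-7e-3p passed the read minimum through EVEN alone and had to be higher. Arms that passed through LacZ alone, such as miR-450a-5p and miR-450a-1-3p, were favoured to be low. The 6 pairs with opposite calls were miR-133a, miR-188, miR-409, miR-423, miR-877 and miR-3184. miR-188-5p had 28 EVEN and 285 LacZ reads, 2.37-fold lower (1.60 to 3.63), while miR-188-3p was 6.51-fold higher. miR-409-5p had 3 and 97 reads, 7.52-fold lower (2.50 to 37.1), and miR-409-3p 20 and 37, 2.32-fold higher (1.28 to 4.11). miR-877-5p, a mirtron cut from its host by splicing, had 1043, 263, 987 and 320 reads in the 4 libraries, 3.53-fold higher (2.99 to 4.17), while miR-877-3p had 2 and 25 EVEN and LacZ reads, a ratio of -1.25 that was 0.0045 with 5 reads added.

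miR-423 and miR-3184 come from opposite strands of 1 site, on chromosome 17 at 30117079 to 30117172 (plus) and 30117086 to 30117160 (minus). The 5p arm of each overlaps the 3p arm of the other. miR-423-5p had 3123, 1755, 7031 and 2247 reads, 3.36-fold higher (3.15 to 3.58), and miR-3184-3p 646, 576, 1899 and 633, 3.91-fold (3.49 to 4.39). miR-423-3p and miR-3184-5p were 2.69-fold (2.14 to 3.43) and 2.59-fold (1.76 to 3.96) lower. Whether reads were counted by strand was not stated, so the 2 hairpins are not independent. With totals that omit the 10 most abundant miRNAs of each library, neither lower call held.

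The CLCN5 cluster on the X chromosome and the DLK1-DIO3 cluster at 14q32 held both higher and lower members, beside 9.69% higher and 51.2% lower among all members. The CLCN5 cluster at Xp11.23, cut from introns of that chloride transporter gene, had 14 members, 1 higher (miR-188-3p), 6 lower and a median ratio of -0.89; other scalings left 3 lower. Its most abundant members, miR-660-5p and miR-532-5p, were 5.40-fold (4.68 to 6.27) and 1.87-fold (1.70 to 2.05) below LacZ. The imprinted DLK1-DIO3 cluster at 14q32 had 11 members, 3 of them higher and 5 lower, with miR-432-5p included only through EVEN, and a median of -0.34 that was positive with median-of-ratios factors (0.07). Its higher members were miR-432-5p with 23 EVEN and 16 LacZ reads, 6.18-fold (3.13 to 12.5), miR-134-5p with 29 and 24, 5.20-fold (2.92 to 9.32), and miR-409-3p. miR-411-5p, with 0 and 63 reads, was at least 4.88-fold lower.

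Several other higher members stood outside these lists. miR-483-5p, from an intron of the growth factor gene IGF2, had 6600, 4278, 6371 and 8043 reads, a fold of 2.29 (2.20 to 2.37), with LacZ already 3.10 above the input on the log2 scale. miR-421 had 3003, 201, 56 and 268 reads, 3.22-fold higher (2.67 to 3.89). Its cluster neighbour miR-374b-5p had a ratio of -0.27, and miR-374a-5p, from the neighbouring miR-374a cluster, was 19.4-fold lower (10.5 to 40.7). miR-574-5p was 2.22-fold higher (1.66 to 2.95), and miR-3187-3p, miR-6807-5p, miR-935, miR-1226-3p and miR-7706 lay between 2.57-fold and 3.34-fold.

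In some families every member was called lower by totals, beside 51.2% of all members. Arms below the read minimum are not counted here. All 3 members of the miR-29 family, which represses collagens and other matrix genes, were lower under every scaling tried, with a median ratio of -3.49 (-2.85 with miR-29c-3p at its bound). All 3 passed the read minimum through LacZ alone, which favours low ratios. miR-29a-3p had 4970, 8, 30 and 242 reads in the 4 libraries, 7.04-fold below LacZ (3.51 to 16.5), and miR-29b-3p 2381, 2, 11 and 120, 14.0-fold (3.78 to 117). miR-29c-3p had 1659, 0, 20 and 93 reads and was at least 7.21-fold lower. LacZ was below the input for all 3, with log2 ratios from -1.55 to -1.34.

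The miR-30 family had 7 of 7 members called lower by totals, with a median of -2.06 (-1.97 at the bound), and 4 of 7 when centred on the members' median. One of the 7, miR-30c-1-3p, had 0 EVEN and 20 LacZ reads, a bound of 1.55-fold. Its most abundant member, miR-30e-5p, had 45960, 158, 487 and 4982 reads, 7.33-fold lower (6.26 to 8.65). In the miR-130, miR-301 and miR-454 family 8 of 8 were lower by totals with a median of -1.31 (-1.14 at the bound), close to that of all members, and 3 of 8 when centred. The 3 members of the miR-34 and miR-449 family, which act in ciliated epithelia and downstream of p53, were called lower under every scaling tried, with a median of -4.37 (-1.77 with the members at 0 EVEN reads at their bounds). These 3 also passed the read minimum through LacZ alone. miR-34a-5p had 2, 0, 1 and 22 reads in the 4 libraries, and its bound is at least 1.71-fold lower, so its call rests on the added 0.5. miR-449a had 463, 3, 4 and 670 reads, a ratio of 51.9 in favour of LacZ (17.7 to 253), and miR-449c-5p 32, 0, 1 and 44.

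The lower members were of different kinds when set against the input. LacZ was at least 2-fold above the input for 40 of the 148, and 18 of those 40 were also at least 2-fold above it in EVEN. LacZ was at least 2-fold below the input for 48, and all 48 were at least 2-fold below it in EVEN. The remaining 60 were within 2-fold of the input in LacZ, and 50 of them were at least 2-fold below it in EVEN. Of all 289 members, 82 (28.4%) were at least 2-fold above and 63 (21.8%) at least 2-fold below the input in LacZ, and 127 (43.9%) at least 2-fold below it in EVEN.

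miR-1301-3p, from an intron of DNMT3A, is of the first kind. It had 293, 13, 71 and 1578 reads, or 98.1, 131, 166 and 3709 CPM, so LacZ alone was high and EVEN was near the input, 28.2-fold below LacZ (16.5 to 53.1). miR-378a-5p, from an intron of the metabolic coactivator gene PPARGC1B, had 959, 18, 32 and 1382 reads, 17.9-fold lower (11.3 to 30.2), and miR-1307-3p 284, 34, 148 and 1808, 12.4-fold (8.82 to 17.9). miR-6820-5p had 1, 2, 2 and 171 reads, a ratio of 19.9 in favour of LacZ (5.42 to 166). For these 4 the LacZ value stands apart from the other 3 libraries. miR-627-3p, miR-132-5p and miR-4745-3p were also above the input in LacZ, with 0 EVEN reads against 72, 70 and 52 in LacZ.

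miR-33a-5p, which lies in an intron of the sterol regulator gene SREBF2 and represses cholesterol export genes, is of the other kind. It had 1955, 0, 11 and 95 reads, so all pull-downs were below the input, and EVEN was at least 7.37-fold below LacZ. miR-138-5p had 2341, 1, 12 and 116 reads, a ratio of 27.0 in favour of LacZ (4.75 to 1075), and miR-374a-5p 16552, 10, 125 and 835. miR-140-5p, known from cartilage, had 906, 0, 5 and 61 reads and was at least 4.73-fold lower.

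**Figure D4:**
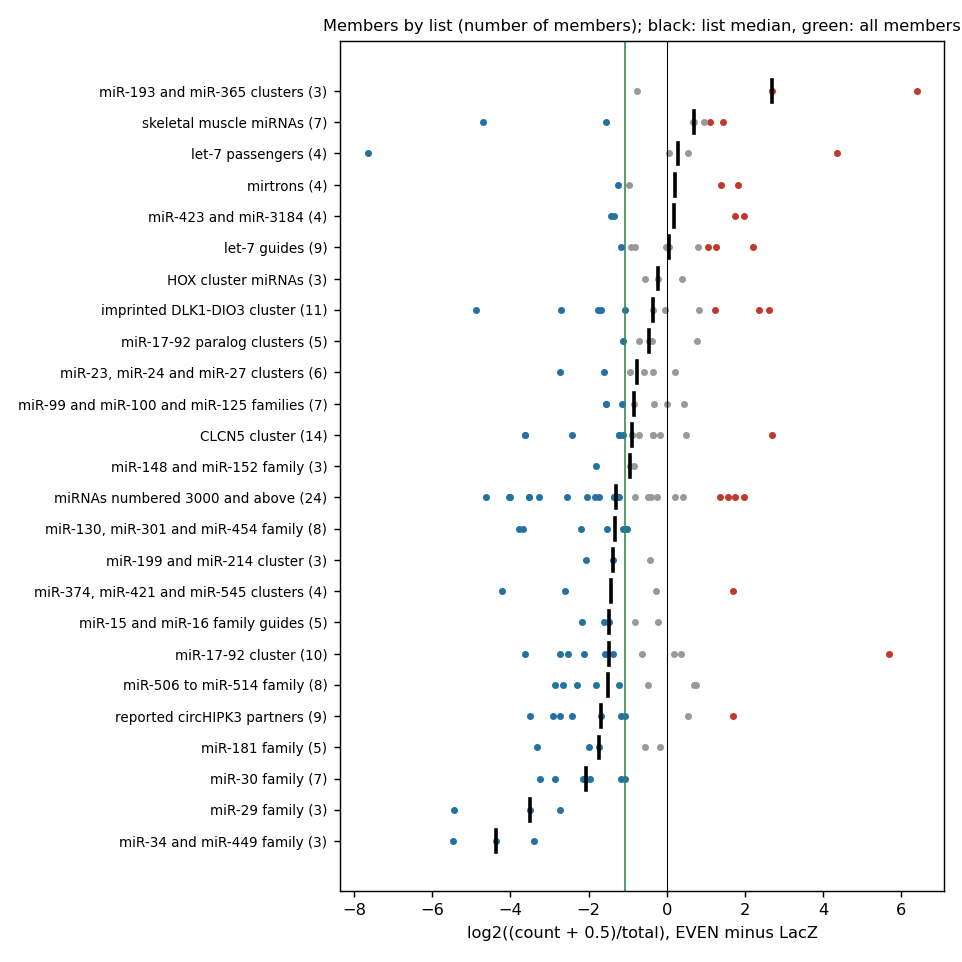
Log2 ratio of EVEN over LacZ (x axis) of the members of each list with 3 or more members (y axis, number of members in brackets), with calls in red and blue, the list median as a black bar and the median of all members (-1.06) as a green line. The list of the miR-193 and miR-365 clusters has the highest median (2.70), with 1 of its 3 members included only through EVEN, and the skeletal muscle list has a median of 0.69. The miR-29 family and the miR-34 and miR-449 family have the lowest (-3.49 and -4.37), and all their members were included only through LacZ.

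miRNAs that have been named as circHIPK3 partners, listed from general knowledge, were examined next. Of 9 members on this list 1 was higher (miR-421) and 7 lower by totals, beside 9.69% and 51.2% of all members, with a median of -1.68 against -1.06; centred on the members' median, 2 were higher and 4 lower. miR-7-5p, which also binds the circular RNA CDR1as, had 33324, 295, 681 and 9503 reads, 7.49-fold lower (6.67 to 8.44). miR-107 had 677, 19, 168 and 57 reads, a fold of 1.43 (0.805 to 2.45). miR-338-3p had 1125, 2, 15 and 57 reads, a ratio of 6.63 in favour of LacZ (1.75 to 56.1), and miR-379-5p 177, 2, 13 and 34.

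Markers of epithelial, neuronal and endothelial cells took a smaller share of EVEN than of LacZ reads, and those of blood cells a larger one. All 3 epithelial members, all 3 neuronal members and both endothelial members were called lower by totals, beside 51.2% of all members, and 1 of each when centred. The epithelial miR-200a-3p had 0 EVEN and 21 LacZ reads, and its bound is at least 1.63-fold lower. The epithelial miR-205-5p and miR-203a-3p had only 4 and 2 input reads. Both lay far above the input in LacZ (log2 ratios of 8.35 and 7.43) and in EVEN (7.10 and 6.29). The 4 neuronal markers summed to 0.966% of EVEN, 0.499% of ODD and 2.56% of LacZ reads, with miR-124-3p at 0 in all 3. The 2 endothelial markers summed to 0.399% of EVEN, 0.183% of ODD and 1.15% of LacZ reads. The 7 epithelial markers summed to 0.0195% of the input, 0.0334% of EVEN, 0.0896% of ODD and 0.0785% of LacZ reads. The 5 blood cell markers summed to 0.0212% of EVEN and 0.00658% of LacZ reads, with miR-451a and miR-144-3p at 0 in both; none of the 5 reached the read minimum. Their part in the results was not tested.

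The circle itself was searched for seed matches. Exon 2 of HIPK3 lies at chr11:33286413-33287511 of GRCh38, plus strand, and is 1099 bases long, nearly all coding sequence of transcript HIPK3-201 in GENCODE release 29, which supplied its letters. A match was the 7 bases complementary to bases 2 to 8 of a member, with the exon treated as closed at its ends. None of the 27 higher members with a sequence had such a match, against 7 of 106 members within 2-fold (6.60%) and 14 of 134 lower ones (10.4%). Over all 267 members the share was 7.87%, and over 2370 RefSeq mature miRNAs 7.38%. With 6-base matches the shares were 18.5%, 20.8% and 30.6%. On the opposite strand the 7 bases of the seed occurred for 3 of 27, 11 of 106 and 5 of 134 members.

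Of the 9 listed partners that were members 3 had a match, and those below the read minimum were not searched. The sites of miR-338-3p and miR-379-5p are shown with those of the abundant miR-148 members and of miR-17-3p as examples. The third partner, miR-584-5p, had a match (AACCATA) at chr11:33287205-33287226 and a log2 ratio of -1.17. Each is the exon sequence with the seed match in capitals, followed by its position on the plus strand.
miR-148b-3p and miR-148a-3p: caacaagtggccacTGCACTGa (chr11:33287324-33287345)
miR-338-3p, first site: ggccaggtagttaaATGCTGGa (chr11:33287039-33287060)
miR-338-3p, second site: gtttagtctttgagATGCTGGa (chr11:33287229-33287250)
miR-379-5p: cctcacaagtcttgGTCTACCc (chr11:33286419-33286440)
miR-17-3p: ttgttttgaaaaacACTGCAGg (chr11:33286662-33286683)
The motif TGCACTG of miR-148b-3p and miR-148a-3p overlaps a match of miR-30e-3p (ACTGAAA) by 4 bases. These miRNAs had log2 ratios of -0.95, -1.81, -2.42 for miR-338-3p, -1.68 for miR-379-5p and -1.59 for miR-17-3p. The highest ratio of a member with a match was 0.84, for miR-381-3p, and the lowest -5.47, for miR-33a-5p.

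These matches are common in sequence of this length. In the first 1099 bases of the longest transcript of 17609 protein-coding genes, the motif ATGCTGG occurred in 14.5%, TGCACTG in 8.83%, ACTGCAG in 14.6% and GTCTACC in 4.06%. A median of 23 of the 267 members had a match per window, and 63.1% of windows held matches for at least as many members as the 21 of exon 2. The longest run of bases complementary to exon 2 had a median of 6 bases in higher members (6 to 8), 7 in lower ones (5 to 10) and 7 in the others (5 to 11). A match describes letters only and is not a binding site.

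Base composition differed between the calls. The median G and C content was 56.5% in 27 higher members, 54.5% in 106 members within 2-fold and 45.5% in 134 lower ones. Over all 267 members with a sequence 27 were higher and 134 lower. Of the 30 members with at most 35% G and C, none was higher, 26 were lower and the median ratio was -2.26. Of the 31 members above 55% and up to 60%, 8 were higher and 11 lower, with a median of 0.01, and the 13 above 70% had a median of -0.92. Across the 267 members the Spearman correlation of G and C content with the EVEN to LacZ ratio was 0.33. It was 0.26 over 142 members with 100 or more LacZ reads and 0.34 over 128 with 20 or more reads in both. Members share the same 2 libraries and are not independent replicates. With the ODD to LacZ ratio the correlation was 0.28 and with the LacZ to input ratio 0.52, and these share the LacZ library. miRNA length had a median of 22 bases in all 3 classes.

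**Figure D5:**
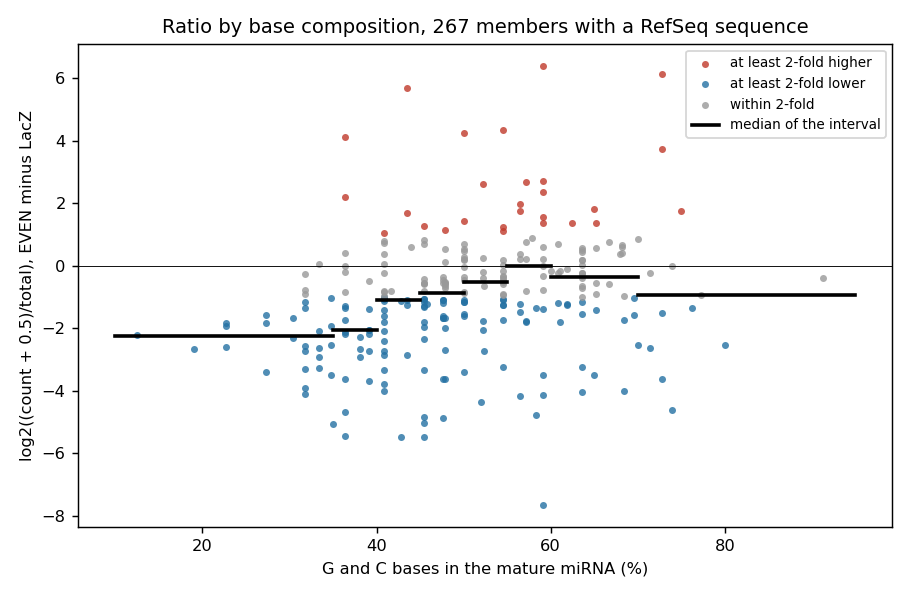
Log2 ratio of EVEN over LacZ (y axis) against the share of G and C bases in the mature miRNA (x axis, %) for 267 members, coloured by call, with the median of each composition interval as a black bar. Medians run from -2.26 at up to 35% to 0.01 between 55% and 60% and are at -0.92 above 70%.

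The thresholds divided close values. Just inside the 20-read minimum, at 20 LacZ reads, were miR-30c-1-3p, miR-3605-3p, miR-625-5p and miR-629-5p with ratios from -3.25 to 0.21, and just outside was miR-152-3p with 0 and 19 reads. Just above the 2-fold line were miR-574-5p, miR-133a-3p and let-7e-5p (1.05 to 1.16), and just short of it miR-486-3p, miR-1260b and miR-760 (0.86 to 0.95). On the lower side miR-183-5p, miR-454-3p and miR-671-5p lay at -1.01 to -1.02, and miR-148b-3p, miR-1224-5p and miR-345-5p at -0.95 to -0.99.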

How the data were processed

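The authors deposited raw read counts per mature miRNA for 4 libraries (input, EVEN, ODD and LacZ), and, beside them, CPM, each count scaled to 1000000 miRNA reads of its library. A QIAseq miRNA kit and single-end sequencing were used, per the labels' protocols, and GRCh38 was the build, per the submitters' processing notes. Not given in the sources used here were trimming, aligner, annotation, strand, molecular identifiers and the assignment of reads that fit several miRNAs; uncollapsed copies would make counting intervals too narrow.

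From the counts, log2((count + 0.5)/total) was compared between EVEN and LacZ for miRNAs with 20 or more reads in at least 1 of them, and called at 2-fold. Folds are ratios of shares without the 0.5, with 95% exact conditional Clopper-Pearson intervals, CPM intervals are exact Poisson, and a fold against 0 reads is a bound that sets a floor of 3 counts. Depth ran from 98950 to 2987858 reads. Per the series' design text there was 1 biological replicate, so no p-value was computed. Sequences came from RefSeq tables (GRCh38.p14) and GENCODE release 29.

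Alternatives were TMM (edgeR 4.0.16), DESeq2 1.42.0 size factors, reduced totals, centring, other minimums, constants and thresholds. Named miRNAs are the 15 highest and 15 lowest, those with the most EVEN reads, those at the thresholds, higher and abundant list members, opposite arms and cluster neighbours; others were chosen after their values were seen. The members and lists were chosen with earlier results of these data known. The steps were tested on simulated data. Python 3.11.15, pandas 2.3.3, numpy 2.4.6, scipy 1.17.1, matplotlib 3.10.9 and R 4.3.3 were used.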

Additional observations from a re-analysis of the deposited data

Results flagged for a closer look

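In 14 of the 289 members the EVEN and ODD libraries lay at least 2-fold on opposite sides of the LacZ library. Of all 289, 28 (9.69%) were higher and 148 (51.2%) lower with EVEN, and 24 (8.3%) and 213 (73.7%) with ODD. Lower with ODD was thus the common state, and 9 of the 28 were lower with ODD. Of the 148, 5 were higher with ODD. Members were not chosen by ODD reads, which favours low ODD values. Each comparison is 1 library against 1, both ratios share the LacZ library, and the difference was not tested. Values are the EVEN to LacZ log2 ratio minus the ODD to LacZ log2 ratio.

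Higher with EVEN and lower with ODD were miR-1914-5p (7.37, from 57 EVEN, 1 ODD and 3 LacZ reads), miR-18a-5p (7.02), miR-489-3p (5.96, from 50, 3 and 11 reads) and miR-188-3p (5.23). The others were miR-421 (3.94), the muscle miRNAs miR-133b (3.54) and miR-133a-3p (3.03), miR-935 (3.41) and miR-7706 (3.34). miR-1914-5p and miR-489-3p passed the read minimum through EVEN alone, so their EVEN to LacZ ratios had to be high.

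Lower with EVEN and higher with ODD were miR-17-3p (-6.13, from 16, 4984 and 213 reads) and 2 miRNAs of the miR-15/16 family, miR-503-5p (-4.59) and miR-15a-5p (-3.53), which repress cell cycle genes. miR-214-3p (-4.44) and miR-1247-5p (-3.40) completed them. Of these, miR-17-3p, miR-15a-5p and miR-1247-5p passed the read minimum through LacZ alone, which favours low EVEN to LacZ ratios. miR-18a-5p and miR-17-3p come from neighbouring hairpins of 1 transcript and differed in opposite directions.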

How the results depend on the processing

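By library totals 28 members were at least 2-fold higher and 148 lower. The higher count became 43 with median-of-ratios size factors, 48 with totals without the 10 most abundant miRNAs and 76 when centred on the members' median, with which 73 were lower. Adding 5 reads left 87 lower. A minimum of 1 read gave 149 higher and 248 lower of 789, and one of 100 reads 15 and 80 of 158. Requiring 20 reads in both libraries left 49 lower of 138, and an equal CPM minimum 85 of 182. A 4-fold threshold gave 12 and 76, and an interval past 2-fold 18 and 72. TMM factors (36 and 118) and 1 added CPM (28 and 151) stayed within 1.5 times. Among 111 named members under 6 scalings and constants, 5 of 666 values were on the other side of 0 from a ratio called at 2-fold. Centred, miR-183-5p was at 0.048, miR-454-3p at 0.039 and miR-671-5p at 0.039; with 5 reads added, miR-625-5p was at 0.045 and miR-877-3p at 0.0045. When centred, 75 moved beyond their counting interval. The share of members with a seed match moved from 7.87% to 25.5% with 6-base matches. A count of 0 in EVEN allows 30.3 CPM, which limits the 24 members at 0; 7 of them have bounds under 2-fold. No paired analysis was possible because each group has 1 library.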
